A study of Homo sapiens with 3 samples.

Results

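Cholesterol is made from acetyl-CoA by a chain of enzymes, and the same cells sense, store, import and export it. A set of 33 sterol genes was followed along that route: 19 enzymes of the path to cholesterol, GGPS1 of the geranylgeranyl branch, 7 genes that control the SREBP transcription factors, and 6 genes of sterol transport, storage, efflux and lipid synthesis. They were chosen as a list of gene symbols by their place in the pathway, with earlier results of these data known. All 33 were matched by Ensembl identifier in a table of 22827 genes. At least 10 reads in 1 or more libraries were found for 31 of them. NSDHL and EBP, a pair of enzymes of the late pathway, were listed at 0 in every library. Not every step of the pathway is covered here.

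RNA was sequenced from cells labelled as the human liver cancer line Hep3B, in 1 library each of USP39-KO, SIRT7-KO and control. USP39-KO cells carry a knockout of USP39, a splicing factor that resembles ubiquitin proteases, and SIRT7-KO cells a knockout of SIRT7, a nuclear sirtuin that removes acyl groups from proteins. The labels do not say how the knockouts were made, whether each came from 1 clone or what the control received, and they state no treatment or time. USP39 had 1066 reads in USP39-KO, 1511 in SIRT7-KO and 1829 in control, and SIRT7 had 808, 608 and 984 reads in the same order. Scaled for library size, USP39 in USP39-KO was 0.688 times its control level (95% interval for counting error 0.637 to 0.742), and SIRT7 in SIRT7-KO was 0.736 times its control level (0.664 to 0.815). The RNA of both targeted genes was thus lower in its own library but still present. USP39 in SIRT7-KO was at 0.984 (0.918 to 1.05) and SIRT7 in USP39-KO at 0.969 (0.882 to 1.06).

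The first part of the route, the mevalonate pathway, joins acetyl-CoA units and builds the isoprenoid farnesyl diphosphate. A pair of farnesyl units is then joined into squalene, squalene is oxidised and closed into lanosterol, and lanosterol is trimmed and reduced to cholesterol. SREBP transcription factors are held in the endoplasmic reticulum membrane by SCAP and the INSIG proteins while sterol is plentiful. When sterol falls, SCAP carries them to the Golgi, where the proteases of MBTPS1 and MBTPS2 release them to switch on the synthesis genes. Liver X receptors, which sense oxysterols, act on the other side of the balance and switch on the exporters ABCA1 and ABCG1 and the receptor-degrading ligase MYLIP.

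Promoter letters are shown for 6 of the genes, because the synthesis genes and the exporters are known to be controlled there by different factors. Windows were the 250 bases before each start site in RefSeq (GRCh38.p14), and 29 of the 33 genes, with 39 windows, were searched. ACAT2, FDFT1, SQLE and ABCG1 had no window in the search, so the motif shares leave them out. FDFT1 and SQLE were set aside by their position in the genome, a rule applied to the sterol genes and not to all windows. The shares of sterol windows and of all windows thus do not cover the same parts of the genome. The absence of these genes does not show that they lack the motifs. The stretches printed are the part of the window that also lies before the outermost start of the gene in GENCODE 29. They read 5′ to 3′ on the strand of the gene, and capitals mark CCAAT or its reverse complement ATTGG (the box bound by NF-Y, a partner of SREBP), TCACNCCAC (the core of the sterol regulatory element) and CACGTG (the E-box). HMGCS1 (chr5:43313513-43313662, minus strand) and MVD (chr16:88663162-88663341, minus strand) are mevalonate enzymes, LSS (chr21:46228825-46229024, minus strand) closes the sterol rings, STARD4 (chr5:111512591-111512785, minus strand) carries sterol, SREBF2 (chr22:41832855-41833078, plus strand) encodes SREBP2 and ABCA1 (chr9:104928238-104928405, minus strand) exports cholesterol.
HMGCS1: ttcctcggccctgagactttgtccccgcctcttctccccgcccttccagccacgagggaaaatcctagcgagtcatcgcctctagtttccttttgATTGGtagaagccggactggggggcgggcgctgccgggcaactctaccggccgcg
MVD: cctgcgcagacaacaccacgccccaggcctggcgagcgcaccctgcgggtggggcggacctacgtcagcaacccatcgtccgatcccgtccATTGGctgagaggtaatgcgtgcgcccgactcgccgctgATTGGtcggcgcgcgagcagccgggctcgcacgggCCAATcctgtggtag
LSS: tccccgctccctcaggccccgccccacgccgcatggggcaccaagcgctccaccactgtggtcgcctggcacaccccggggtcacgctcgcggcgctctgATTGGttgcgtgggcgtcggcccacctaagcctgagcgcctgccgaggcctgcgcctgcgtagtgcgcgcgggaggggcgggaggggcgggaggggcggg
STARD4: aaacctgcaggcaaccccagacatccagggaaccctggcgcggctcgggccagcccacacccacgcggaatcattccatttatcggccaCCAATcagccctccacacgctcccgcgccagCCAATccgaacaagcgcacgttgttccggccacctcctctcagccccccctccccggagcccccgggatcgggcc
SREBF2: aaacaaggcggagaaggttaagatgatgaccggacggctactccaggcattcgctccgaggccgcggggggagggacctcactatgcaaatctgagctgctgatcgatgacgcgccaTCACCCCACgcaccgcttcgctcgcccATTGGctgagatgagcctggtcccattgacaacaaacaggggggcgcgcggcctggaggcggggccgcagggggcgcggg
ABCA1: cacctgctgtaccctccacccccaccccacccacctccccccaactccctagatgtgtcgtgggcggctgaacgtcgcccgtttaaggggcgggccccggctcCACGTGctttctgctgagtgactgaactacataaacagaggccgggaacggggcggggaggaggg

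All motifs were searched on both strands. CCAAT was present in 21 of the 39 windows (53.8%), against 32.0% of all 35116 windows in the table, and 19 of the 29 genes had it. Single windows held up to 5 boxes, in MVK and NSDHL, and that of MSMO1 held 4. TCACNCCAC was present only in the window of SREBF2 among the 29 genes, against 0.883% of all windows. CACGTG was present in 5 of the 39 windows (12.8%), against 6.34% of all windows, and belonged to SC5D, SCAP, INSIG1 and ABCA1. Both SC5D windows hold the same CACGTG site and the same CCAAT box, so each site is counted in both windows. The GC box GGGCGG, which the capitals leave out, was present in 32 of the 39 windows (82.1%), against 42.6% of all windows. Both INSIG2 windows hold the same GC box. For liver X receptors a loose pattern was searched, a direct repeat of NGGTNA (N is any base) with 4 bases between the units. This repeat was present in 2 of the 39 windows (5.13%), those of HMGCS1 and ABCA1, against 0.530% of all windows. With 2 windows matched, the share gives no result about the sterol genes. A match to so open a pattern does not show that a receptor binds there. In HMGCS1 the repeat (chr5:43313352-43313367) lies inside the bounds of the gene in GENCODE 29. In ABCA1 it also lies inside the GENCODE 29 bounds of its gene (chr9:104928209-104928224), 69 bases before the RefSeq start and on the opposite strand. The ABCA1 repeat is printed here on the strand of the gene, in capitals over its whole length.
ABCA1 repeat: TGACCGATAGTAACCT

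Counts summed to 16630636 in USP39-KO, 16151522 in SIRT7-KO and 19427940 in control, and reads were listed for 14361, 14616 and 14711 genes in that order. Liver markers were nearly absent: 12 of 14 hepatocyte markers had fewer than 10 reads in every library, ALB, AFP and TTR were at 0, and the list summed to 2.13 CPM (counts scaled to a common library total) in USP39-KO, 1.53 in SIRT7-KO and 6.59 in control. Fibroblast markers summed to 140 CPM in USP39-KO, 115 in SIRT7-KO and 118 in control, mostly COL1A1 and PDGFRB, and 5 of those 8 markers had fewer than 10 reads in every library. Endothelial markers summed to 0.729, 0.919 and 1.13 CPM and blood markers to 3.77, 4.78 and 3.81 CPM in the same order. Of the hepatocyte markers, HNF4A had 29 reads (1.76 CPM) in USP39-KO, 7 (0.429 CPM) in SIRT7-KO and 113 (5.82 CPM) in control. FGG went another way, with 0, 16 and 2 reads in the same order. Most liver markers were thus listed at or near 0, and the cells are called by their labels. The part of these marker differences in the sterol values was not tested. In bulk RNA, fewer cells of a type and less RNA per cell cannot be told apart.

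Each ratio below is a log2 ratio of counts scaled by library size with TMM (trimmed mean of M-values). It carries an exact 95% interval that covers counting error only. Each group is a single library, so differences have no replicate check and no test, and the values describe these libraries. The 1.2-fold rule counts a gene whose ratio is at least that size with an interval that excludes 0, and the 2-fold rule does the same at the larger size. Both knockouts are set against the same control library, so their ratios share its counting error. For that reason USP39-KO is also set directly against SIRT7-KO.

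Levels per gene length (FPKM, read counts scaled by gene length and library total) placed the sterol genes above the typical gene. The 31 measured genes had a median of 16.4 FPKM in USP39-KO, 16.9 in SIRT7-KO and 15.03 in control, against 6.04, 6.23 and 6.16 FPKM over all genes with at least 10 reads in 1 or more libraries. DHCR7 and FDFT1 were the most abundant pair in each library: DHCR7 had 81.7 FPKM in USP39-KO, 53.5 in SIRT7-KO and 61.9 in control, and FDFT1 77.5, 50.8 and 62.0 FPKM. The next in USP39-KO were SOAT1 at 62.6 FPKM, INSIG1 at 51.2 and SREBF1 at 49.1. At the low end CYP51A1 had 1.42 FPKM in USP39-KO, 0.653 in SIRT7-KO and 0.935 in control. TM7SF2 and ABCA1 were nearby, at 0.906 and 1.02 FPKM in control.

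**Figure D1:**
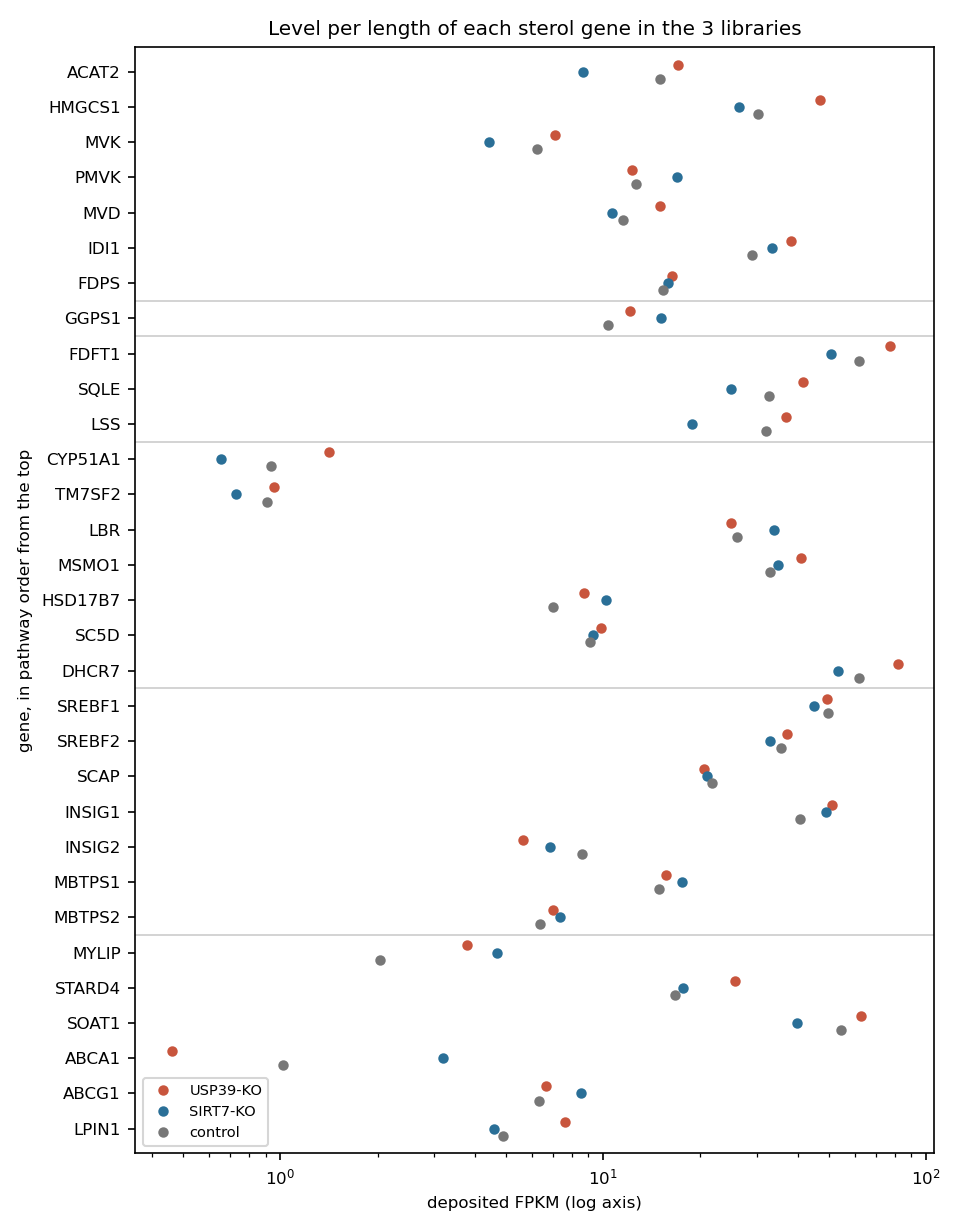
Deposited FPKM (log axis) of the 31 measured sterol genes in pathway order, 1 point per library (USP39-KO, SIRT7-KO, control); grey lines separate the 6 roles. The synthesis enzymes lie between 4.44 and 81.7 FPKM except CYP51A1 and TM7SF2, which lie between 0.653 and 1.42.

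USP39-KO was the highest of the 3 libraries for 19 of the 31 genes, SIRT7-KO for 9 and control for 3. SIRT7-KO was the lowest for 15, control for 12 and USP39-KO for 4. The enzymes of the path to cholesterol summed to 2178 CPM in USP39-KO, 1527 CPM in SIRT7-KO and 1742 CPM in control. Their summed ratio to control was 1.25 in USP39-KO (95% interval 1.23 to 1.27) and 0.877 in SIRT7-KO (0.863 to 0.891).

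In USP39-KO against control, 13 of the 31 sterol genes (41.9%) were at least 1.2-fold higher, where 10.1% of all 12726 measured genes were. The sterol list was chosen with earlier results of these data known, so such shares are not a blind comparison. The genes at least 1.2-fold lower were INSIG2 and ABCA1, 2 of 31 (6.45%), against 13.6% of all genes. None was at least 2-fold higher, against 1.49% of all genes, and ABCA1 alone (3.23%) was at least 2-fold lower, against 3.37%. The median ratio was 0.22 over the sterol genes and -0.00 over all genes, and 25 of 31 ratios were above 0. Among genes with at least 100 reads in 1 or more libraries, which removes shallow genes from the background, the share higher was 41.4% of 29 sterol genes and 10.4% of 10181 genes.

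In SIRT7-KO against control the sterol genes went both ways. Of the 31, 7 (22.6%) were at least 1.2-fold higher and 7 (22.6%) at least 1.2-fold lower, against 17.6% and 18% of all measured genes. At 2-fold, MYLIP and ABCA1 (6.45%) were higher, against 3.02% of all genes, and none was lower, against 4.05%. The median ratio was -0.07 over the sterol genes and -0.01 over all genes, with 15 of 31 above 0. The shares at 1.2-fold lie near those of all genes. The median of the 29 genes with at least 100 reads was 0.013.

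**Figure D2:**
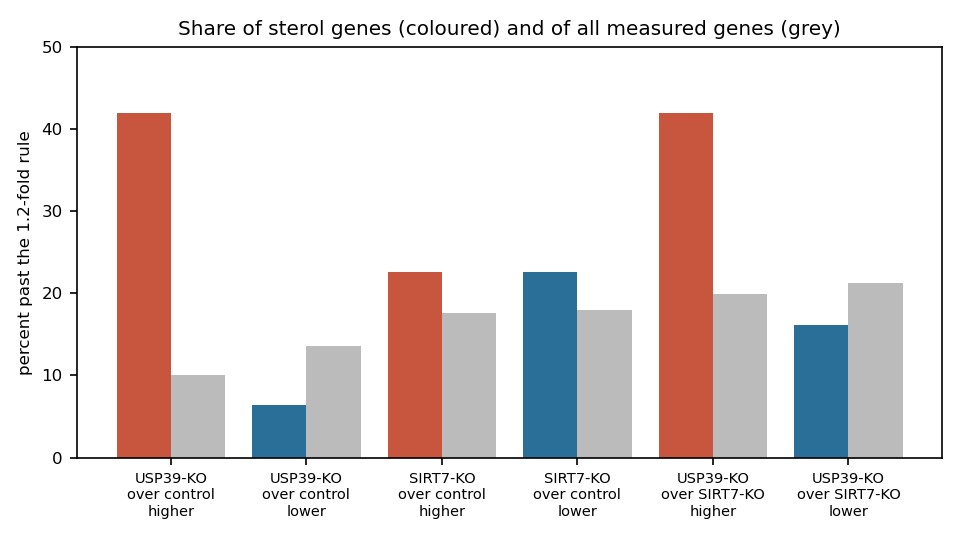
Percent of the 31 measured sterol genes (coloured: red higher, blue lower) and of all 12726 measured genes (grey) past the 1.2-fold rule in each comparison. The tallest coloured bars, 41.9% each, are genes higher in USP39-KO than in control and than in SIRT7-KO.

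The 7 mevalonate enzymes summed to 625 CPM in USP39-KO, 432 CPM in SIRT7-KO and 473 CPM in control. In USP39-KO 3 of them (HMGCS1, MVD and IDI1, 42.9%) were past the 1.2-fold rule as higher, against 10.1% of all genes. None was lower, against 13.6%. In SIRT7-KO 1 was higher (PMVK, 14.3%) and 2 were lower (ACAT2 and MVK, 28.6%), against 17.6% and 18% of all genes.

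ACAT2, the cytosolic thiolase that makes acetoacetyl-CoA from acetyl-CoA, had 1237 reads (75.2 CPM) in USP39-KO, 611 reads (37.4 CPM) in SIRT7-KO and 1277 reads (65.7 CPM) in control. SIRT7-KO stood below the other libraries, at a ratio of -0.81 (-0.95 to -0.67) to control, while the ratio in USP39-KO was 0.19 (0.08 to 0.31) and short of 1.2-fold. ACAT2 shares 558 bases with TCP1 on the opposite strand in GENCODE 29. TCP1 had 4585 reads in USP39-KO, 4796 in SIRT7-KO and 5231 in control. ACAT2 also shares 2202 bases with a SOD2 model on the opposite strand, for which no counts are listed.

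HMGCS1, the synthase that adds a further acetyl unit to give HMG-CoA, had 3665 reads (223 CPM) in USP39-KO, 1999 reads (122 CPM) in SIRT7-KO and 2748 reads (141 CPM) in control. Its ratio in USP39-KO was 0.65 (0.58 to 0.73), the highest of the 17 measured enzymes of the path. The ratio in SIRT7-KO was -0.21 (-0.29 to -0.12), which excluded 0 but was less than 1.2-fold.

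MVK, the kinase that puts the first phosphate on mevalonate, had 660 reads (40.1 CPM) in USP39-KO, 403 reads (24.7 CPM) in SIRT7-KO and 682 reads (35.1 CPM) in control. It was lower in SIRT7-KO, at -0.51 (-0.69 to -0.33), and had 0.19 (0.04 to 0.35) in USP39-KO. MVK and MMAB, a neighbour that SREBP is known to control as well, share 620 bases on opposite strands. MMAB had 590 reads in USP39-KO, 425 in SIRT7-KO and 594 in control.

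PMVK, the kinase that adds the next phosphate, had 262 reads (15.9 CPM) in USP39-KO, 350 reads (21.4 CPM) in SIRT7-KO and 314 reads (16.2 CPM) in control. The order differed from MVK, with SIRT7-KO the highest at 0.41 (0.18 to 0.63), and the interval in USP39-KO included 0, at -0.02 (-0.26 to 0.22). MVD, the decarboxylase that makes isopentenyl diphosphate, had 1174 reads (71.3 CPM) in USP39-KO, 810 reads (49.6 CPM) in SIRT7-KO and 1054 reads (54.2 CPM) in control. It was higher in USP39-KO, at 0.39 (0.27 to 0.52), and the interval in SIRT7-KO reached 0, at -0.13 (-0.26 to 0.01).

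IDI1, the isomerase that makes dimethylallyl diphosphate, had 2269 reads (138 CPM) in USP39-KO, 1932 reads (118 CPM) in SIRT7-KO and 2016 reads (104 CPM) in control. Both knockout libraries were above control, USP39-KO at 0.41 (0.32 to 0.50) and SIRT7-KO at 0.19 (0.10 to 0.28), and of these only the USP39-KO value was past 1.2-fold. FDPS, which condenses these units into farnesyl diphosphate, had 1013 reads in USP39-KO, 950 in SIRT7-KO and 1104 in control. Its intervals included 0 in both knockouts, at 0.12 (-0.01 to 0.24) in USP39-KO and 0.03 (-0.09 to 0.16) in SIRT7-KO. FDPS has 8 pseudogene copies in GENCODE 29, so its reads are uncertain.

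GGPS1 draws farnesyl diphosphate off to geranylgeranyl diphosphate, which anchors small GTPases to membranes. It had 932 reads (56.6 CPM) in USP39-KO, 1131 reads (69.3 CPM) in SIRT7-KO and 929 reads (47.8 CPM) in control. SIRT7-KO was the highest at 0.54 (0.41 to 0.66), and USP39-KO was at 0.24 (0.11 to 0.38), short of 1.2-fold. GGPS1 lies within a TBCE gene model on the same strand over 15963 bases, and how such reads were shared between the models is not stated.

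**Figure D3:**
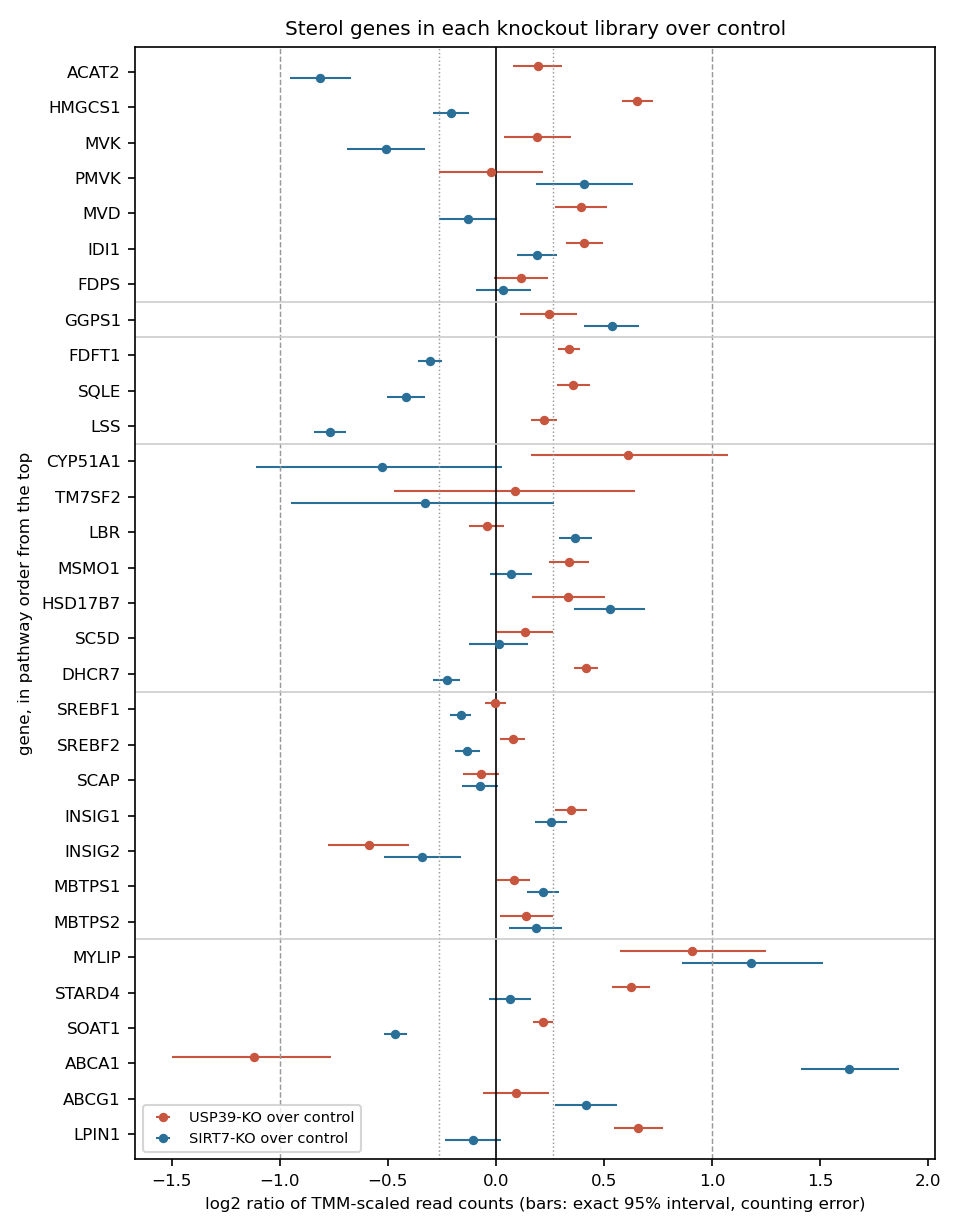
Log2 ratio of TMM-scaled reads to control for the 31 measured sterol genes in pathway order, USP39-KO in red and SIRT7-KO in blue; bars are exact 95% intervals for counting error, dotted lines 1.2-fold and dashed lines 2-fold. From FDFT1 to LSS the red points lie above 0 and the blue points below 0, and ABCA1 has the widest gap between the libraries.

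The 3 enzymes between farnesyl diphosphate and lanosterol differed in sign between the knockouts. They summed to 857 CPM in USP39-KO, 502 CPM in SIRT7-KO and 694 CPM in control. The summed ratio to control was 1.24 in USP39-KO (95% interval 1.21 to 1.26) and 0.724 in SIRT7-KO (0.704 to 0.744). In SIRT7-KO all 3 (100%) were past the 1.2-fold rule as lower, against 18% of all genes. In USP39-KO FDFT1 and SQLE (66.7%) were past it as higher, against 10.1%.

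FDFT1, squalene synthase and the first enzyme committed to sterols, had 6708 reads (408 CPM) in USP39-KO, 4265 reads (261 CPM) in SIRT7-KO and 6267 reads (323 CPM) in control. Its ratio was 0.34 (0.29 to 0.39) in USP39-KO and -0.30 (-0.36 to -0.25) in SIRT7-KO. SQLE, which puts oxygen on squalene, had 2970 reads (180.5 CPM) in USP39-KO, 1723 reads (106 CPM) in SIRT7-KO and 2735 reads (141 CPM) in control. Control lay between the knockouts here too, with ratios of 0.36 (0.28 to 0.43) in USP39-KO and -0.41 (-0.50 to -0.33) in SIRT7-KO.

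LSS, which closes the ring system of lanosterol, had 4424 reads (269 CPM) in USP39-KO, 2206 reads (135 CPM) in SIRT7-KO and 4474 reads (230.3 CPM) in control. It was 1.70-fold lower in SIRT7-KO than in control, at -0.77 (-0.84 to -0.69), and the ratio in USP39-KO was 0.22 (0.16 to 0.28), less than 1.2-fold. After ACAT2 it had the lowest SIRT7-KO ratio of the 31 genes.

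The steps from lanosterol to cholesterol, with 7 of 9 enzymes measured, summed to 696 CPM in USP39-KO, 593 CPM in SIRT7-KO and 575 CPM in control. In USP39-KO 4 were past the 1.2-fold rule as higher (CYP51A1, MSMO1, HSD17B7 and DHCR7, 57.1%), against 10.1% of all genes. None was lower, against 13.6%. In SIRT7-KO 2 were higher (LBR and HSD17B7, 28.6%) and none lower, against 17.6% and 18% of all genes.

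CYP51A1, the lanosterol demethylase, had 96 reads (5.83 CPM) in USP39-KO, 43 reads (2.63 CPM) in SIRT7-KO and 74 reads (3.81 CPM) in control. The few reads leave wide intervals, 0.61 (0.16 to 1.07) in USP39-KO and -0.53 (-1.11 to 0.03) in SIRT7-KO. CYP51A1 lies within a longer gene model on the same strand over 22645 bases and has 3 pseudogene copies, so its low count is uncertain.

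TM7SF2 and LBR encode a pair of sterol reductases that act on the same bond. TM7SF2 had 54 reads in USP39-KO, 40 in SIRT7-KO and 60 in control, and both intervals included 0, at 0.09 (-0.47 to 0.64) in USP39-KO and -0.33 (-0.95 to 0.27) in SIRT7-KO. LBR, which is also the lamin B receptor of the nuclear envelope, had 2174 reads (132 CPM) in USP39-KO, 2865 reads (176 CPM) in SIRT7-KO and 2644 reads (136 CPM) in control. It was far more abundant, at 24.9 FPKM in USP39-KO, 33.7 in SIRT7-KO and 25.9 in control, against 0.953, 0.727 and 0.906 FPKM for TM7SF2. LBR was higher in SIRT7-KO, at 0.37 (0.29 to 0.44), and its interval included 0 in USP39-KO, at -0.04 (-0.13 to 0.04).

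MSMO1, the oxidase that starts removal of a pair of methyl groups from the first ring, had 1972 reads (119.8 CPM) in USP39-KO, 1624 reads (99.5 CPM) in SIRT7-KO and 1840 reads (94.7 CPM) in control. It was past the 1.2-fold rule in USP39-KO, at 0.34 (0.25 to 0.43), and not in SIRT7-KO, at 0.07 (-0.03 to 0.17). NSDHL, the dehydrogenase of the same removal, and EBP, the isomerase that shifts the ring double bond, are both on the X chromosome. They were listed at 0 reads in all 3 libraries, which allows up to 0.182 CPM in USP39-KO, 0.184 in SIRT7-KO and 0.154 in control. The number of genes at 0 in every library was 7183, among them SLC25A1 and POR, which most cells use, so a listed 0 does not show that a gene is silent.

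HSD17B7, the ketoreductase of that removal, had 599 reads (36.4 CPM) in USP39-KO, 679 reads (41.6 CPM) in SIRT7-KO and 561 reads (28.9 CPM) in control. Both knockout libraries lay above control, USP39-KO at 0.33 (0.17 to 0.50) and SIRT7-KO at 0.53 (0.36 to 0.69). It has 2 pseudogene copies in GENCODE 29. SC5D, the desaturase that makes 7-dehydrocholesterol, had 914 reads in USP39-KO, 833 in SIRT7-KO and 983 in control, with ratios of 0.13 (0.00 to 0.27) and 0.01 (-0.12 to 0.15) in the knockouts in that order, neither past 1.2-fold. DHCR7, which reduces 7-dehydrocholesterol to cholesterol, had 5651 reads (343 CPM) in USP39-KO, 3592 reads (220.1 CPM) in SIRT7-KO and 5003 reads (258 CPM) in control. It was higher in USP39-KO, at 0.42 (0.36 to 0.47), and in SIRT7-KO the ratio of -0.23 (-0.29 to -0.16) was short of 1.2-fold.

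Of the 7 genes that control SREBP, INSIG1 was past the 1.2-fold rule as higher and INSIG2 as lower in USP39-KO (14.3% each, against 10.1% and 13.6% of all genes). In SIRT7-KO INSIG2 was lower (14.3%, against 18% of all genes) and none was higher (against 17.6%), so these shares give no result about the group. The list median was 0.08 in USP39-KO and -0.07 in SIRT7-KO.

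SREBF1, which encodes the SREBP1 proteins of fatty acid and sterol synthesis, had 6571 reads in USP39-KO, 5827 in SIRT7-KO and 7769 in control. SREBF2, whose product SREBP2 is the main activator of the cholesterol enzymes, had 4641, 3981 and 5191 reads in the same order. Neither was past 1.2-fold: SREBF1 was at -0.00 (-0.05 to 0.05) in USP39-KO and -0.16 (-0.21 to -0.11) in SIRT7-KO, and SREBF2 at 0.08 (0.02 to 0.14) and -0.13 (-0.19 to -0.07). The RNA level of an SREBP gene does not give the amount of processed factor.

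SCAP, the escort of the SREBPs, had 2142 reads in USP39-KO, 2122 in SIRT7-KO and 2655 in control, with both intervals including 0, at -0.07 (-0.15 to 0.01) and -0.07 (-0.15 to 0.01). MBTPS1, the protease that makes the first cut in the SREBPs, had 2655, 2894 and 2960 reads in the same libraries. MBTPS2, which makes the cut inside the membrane, had 1034, 1057 and 1107 reads. All 4 ratios of the proteases lay between 0.08 and 0.22, below 1.2-fold.

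INSIG1 and INSIG2 both hold SCAP in the endoplasmic reticulum, and INSIG1 is itself a target of SREBP. INSIG1 had 3107 reads (189 CPM) in USP39-KO, 2889 reads (177 CPM) in SIRT7-KO and 2882 reads (148 CPM) in control, with ratios of 0.35 (0.27 to 0.42) in USP39-KO and 0.26 (0.18 to 0.33) in SIRT7-KO, the SIRT7-KO value just short of 1.2-fold. INSIG2 had 370 reads (22.5 CPM) in USP39-KO, 436 reads (26.7 CPM) in SIRT7-KO and 657 reads (33.8 CPM) in control. It was lower than control in USP39-KO, at -0.59 (-0.78 to -0.40), and in SIRT7-KO, at -0.34 (-0.52 to -0.16). Control was thus the lowest library for INSIG1 and the highest for INSIG2.

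The genes of transport, storage and efflux held the largest ratios. ABCA1, which moves cholesterol out of the cell onto lipid-poor apolipoprotein, had 87 reads (5.29 CPM) in USP39-KO, 584 reads (35.8 CPM) in SIRT7-KO and 224 reads (11.5 CPM) in control. SIRT7-KO was 3.10-fold above control, at 1.63 (1.41 to 1.86), and USP39-KO was 2.18-fold below it, at -1.12 (-1.50 to -0.76). SIRT7-KO was thus the highest library for this gene and USP39-KO the lowest. On a log2(FPKM + 1) scale, which draws low values towards 0, the ratios were -0.46 in USP39-KO and 1.05 in SIRT7-KO. ABCG1, which passes cholesterol to mature lipoprotein particles, had 679 reads (41.3 CPM) in USP39-KO, 842 reads (51.6 CPM) in SIRT7-KO and 751 reads (38.7 CPM) in control. It was higher in SIRT7-KO, at 0.42 (0.27 to 0.56), and at 0.09 (-0.06 to 0.25) in USP39-KO.

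MYLIP, the ligase that marks lipoprotein receptors for breakdown, had 191 reads (11.6 CPM) in USP39-KO, 229 reads (14.03 CPM) in SIRT7-KO and 120 reads (6.18 CPM) in control. Both knockouts lay above control, at 0.91 (0.57 to 1.25) in USP39-KO and 1.18 (0.86 to 1.51) in SIRT7-KO, and of these only the SIRT7-KO value was past 2-fold. Like ABCA1 and ABCG1 it is a known target of liver X receptors, and in USP39-KO the ratio of ABCA1 was below 0 while those of ABCG1 and MYLIP were above 0.

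STARD4, a soluble carrier that moves sterol between membranes and a target of SREBP2, had 2411 reads (146 CPM) in USP39-KO, 1626 reads (99.6 CPM) in SIRT7-KO and 1848 reads (95.1 CPM) in control. It was higher in USP39-KO, at 0.62 (0.53 to 0.71), and its interval included 0 in SIRT7-KO, at 0.07 (-0.03 to 0.16). SOAT1, which esterifies cholesterol for storage in droplets, had 7324 reads (445 CPM) in USP39-KO, 4525 reads (277 CPM) in SIRT7-KO and 7434 reads (383 CPM) in control. It was lower in SIRT7-KO, at -0.46 (-0.52 to -0.41), and short of 1.2-fold in USP39-KO, at 0.22 (0.17 to 0.26). LPIN1, a phosphatidate phosphatase of lipid synthesis known to answer to SREBP, had 1505 reads (91.4 CPM) in USP39-KO, 878 reads (53.8 CPM) in SIRT7-KO and 1125 reads (57.9 CPM) in control. Its USP39-KO ratio was 0.66 (0.55 to 0.77), and in SIRT7-KO the interval included 0, at -0.11 (-0.24 to 0.02).

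Set directly against each other, the knockout libraries do not share a control. In USP39-KO against SIRT7-KO, 13 of the 31 sterol genes (41.9%) were at least 1.2-fold higher, against 20% of all genes, and 5 (16.1%) were at least 1.2-fold lower, against 21.2%. At 2-fold, ACAT2 and CYP51A1 (6.45%) were higher, against 3.51% of all genes, and ABCA1 (3.23%) was lower, against 5.03%. The median ratio was 0.21 over the sterol genes and 0.00 over all genes. The count of 2 at 2-fold became 1 with library totals in place of TMM and also among genes reaching 100 reads, which leaves out CYP51A1.

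Of the 17 measured enzymes of the path to cholesterol, 10 (58.8%) were among the 13 genes higher in USP39-KO than in SIRT7-KO. The share of all genes was 20%. Another 2 (11.8%) were lower, against 21.2% of all genes. The summed ratio of the path enzymes was 1.43 (95% interval 1.40 to 1.45). By role it was 1.44 for the mevalonate enzymes (1.40 to 1.49), 1.71 for squalene to lanosterol (1.66 to 1.75) and 1.17 for lanosterol to cholesterol (1.14 to 1.21). Single ratios were 1.14 (0.61 to 1.70) for CYP51A1, 1.00 (0.86 to 1.15) for ACAT2, 0.99 (0.92 to 1.07) for LSS and 0.86 (0.78 to 0.94) for HMGCS1. SQLE was at 0.77 (0.69 to 0.86), MVK at 0.70 (0.52 to 0.88), DHCR7 at 0.64 (0.58 to 0.70), FDFT1 at 0.64 (0.59 to 0.70), MVD at 0.52 (0.39 to 0.65) and MSMO1 at 0.27 (0.17 to 0.36). The other 3 higher genes were LPIN1 at 0.76 (0.64 to 0.89), SOAT1 at 0.68 (0.63 to 0.74) and STARD4 at 0.56 (0.46 to 0.65).

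The 5 genes lower in USP39-KO than in SIRT7-KO were ABCA1, PMVK, LBR, ABCG1 and GGPS1. ABCA1 was 6.77-fold lower, at -2.75 (-3.10 to -2.43). PMVK was at -0.43 (-0.67 to -0.19), LBR at -0.41 (-0.49 to -0.33), ABCG1 at -0.32 (-0.47 to -0.18) and GGPS1 at -0.29 (-0.42 to -0.17). No gene of the SREBP control group was past 1.2-fold between the knockouts, and INSIG2 came nearest at -0.25 (-0.45 to -0.05).

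**Figure D4:**
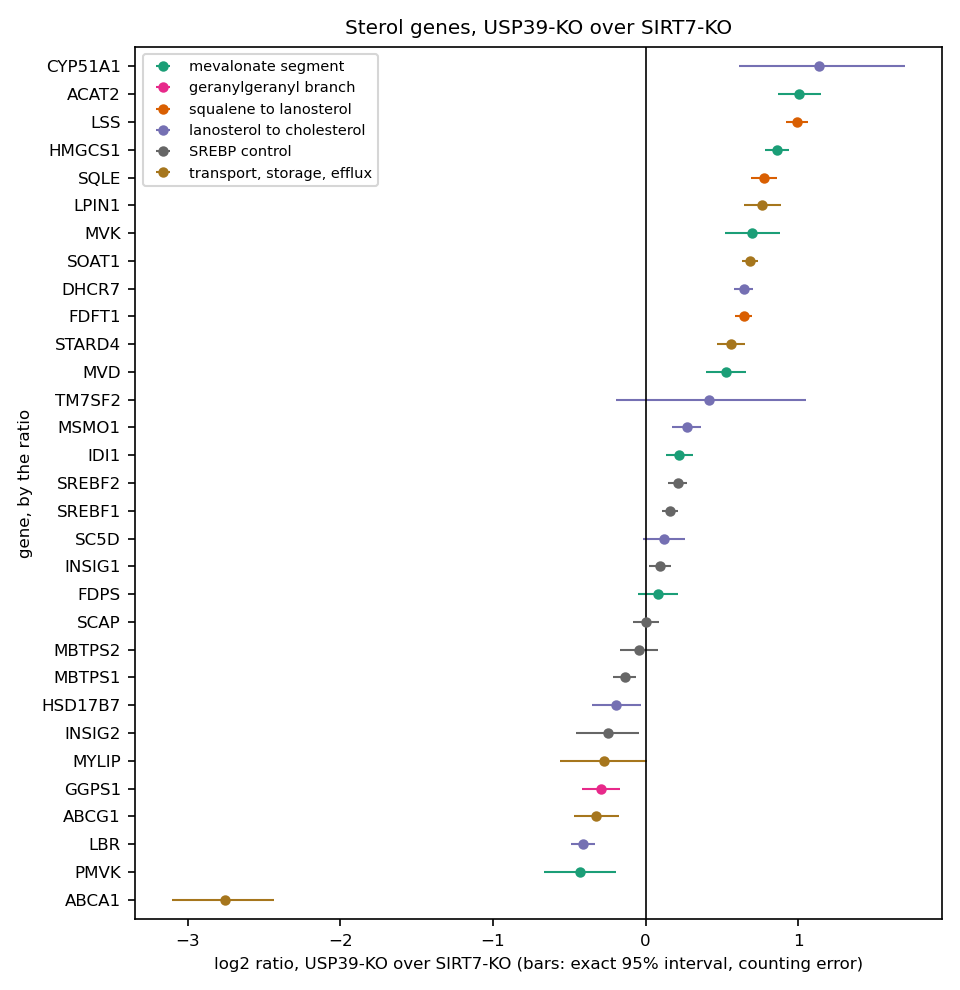
Log2 ratio of USP39-KO over SIRT7-KO for the 31 measured sterol genes, ordered by the ratio and coloured by role, with exact 95% intervals for counting error. CYP51A1, ACAT2 and LSS stand at the top near 1, and ABCA1 at -2.75 is set apart from PMVK, the next lowest at -0.43.

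Genes next to the pathway were read from 7 further lists of 69 genes, of which 60 were measured. In USP39-KO against control 5 of the 60 (8.33%) were past the 1.2-fold rule as higher and 3 (5%) as lower, against 10.1% and 13.6% of all genes, with a median of 0.09. In SIRT7-KO 11 were higher and 11 lower (18.3% each, against 17.6% and 18% of all genes), with a median of 0.01. Between the knockouts 14 were higher in USP39-KO (23.3%, against 20%) and 8 lower (13.3%, against 21.2%). The shares of higher genes were near those of all genes in all 3 comparisons.

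ACLY, which makes cytosolic acetyl-CoA from citrate, had 205 reads in USP39-KO, 119 in SIRT7-KO and 219 in control. Its log2 ratio was 0.14 in USP39-KO and -0.63 in SIRT7-KO, and only the SIRT7-KO value was past 1.2-fold. ACSS2, which makes acetyl-CoA from acetate, was at 0.00 and -0.26 in the same order.

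Of 14 genes that use isoprenoids for ubiquinone, dolichol and protein prenylation, none was past 1.2-fold in USP39-KO, against 10.1% of all genes higher and 13.6% lower. In SIRT7-KO 4 were lower (28.6%, against 18% of all genes) and none higher (against 17.6%). Among the 4 were COQ2 of ubiquinone synthesis (-0.34), the prenyltransferase subunit RABGGTA (-0.28) and the prenyl-protein protease ZMPSTE24 (-0.28). Between the knockouts 6 were higher in USP39-KO (42.9%, against 20%) and none lower (against 21.2%).

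Of 10 measured genes of sterol-linked degradation in the endoplasmic reticulum, none was past the rule in USP39-KO. Of all genes, 10.1% were higher and 13.6% lower there. In SIRT7-KO 1 (10%, against 17.6% of all genes) was higher, ERLIN2 at 0.28. Of 3 measured modulators of SREBP, PAQR3, a Golgi anchor of SCAP, was higher in both knockouts (33.3%, against 10.1% and 17.6% of all genes). It was at 0.51 in USP39-KO and 0.26 in SIRT7-KO, the SIRT7-KO value only just past 1.2-fold.

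**Figure D5:**
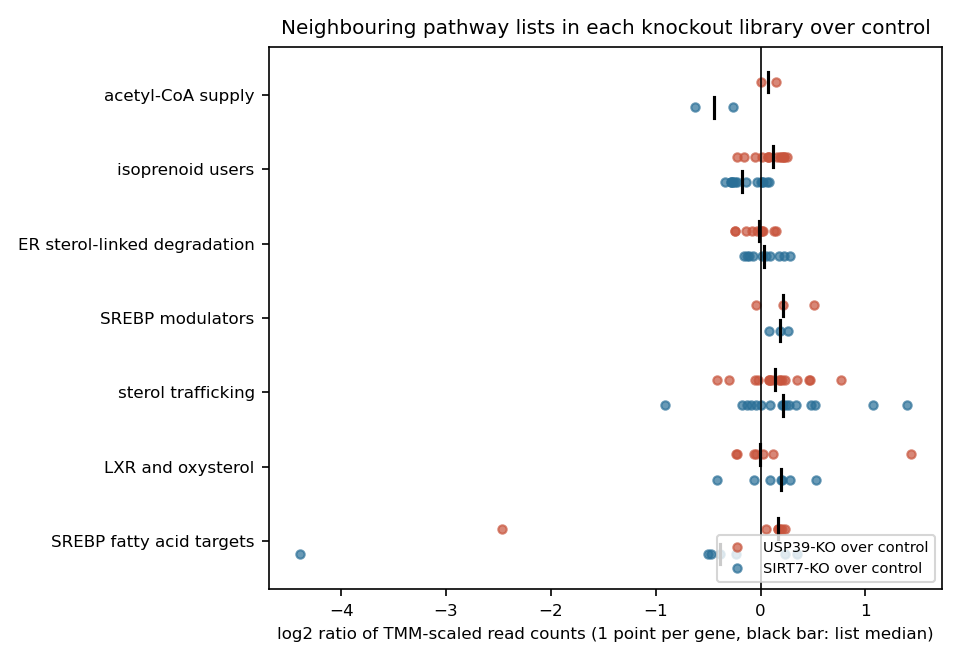
Log2 ratio to control of the measured genes of 7 neighbouring lists, 1 point per gene (USP39-KO in red above SIRT7-KO in blue) with a black bar at the list median; genes with 0 reads in 1 of the 2 libraries are not drawn but are part of the median. Most points lie within 0.5 of 0. The list of SREBP fatty acid targets, which also holds RDH11 and MMAB, has a median of 0.16 in USP39-KO and -0.39 in SIRT7-KO.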

How the data were processed

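Per the labels' protocols, Trizol was used for RNA and a TruSeq RNA kit for the libraries. The authors deposited whole-number read counts and FPKM per gene, with gene lengths, per the file headers. The FPKM equal the counts scaled by length and library total. The sources used here name no aligner, counting program, strand setting, genome build or annotation. Genes that overlap a neighbour or have copies are therefore uncertain.

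Counts were scaled with TMM (edgeR 4.0.16, R 4.3.3). The factors were 0.990 for USP39-KO, 1.01 for SIRT7-KO and 1.00 for control. Log2 ratios used a prior of 0.5 counts. Intervals are exact conditional binomial (Clopper-Pearson) 95% intervals, which cover counting error only, as PCR copies cannot be told from separate molecules. A count of 0 allows up to 3 counts. A gene was kept where some library had 10 counts or more (12726 genes). Symbols came from a separate list of gene names, filled from GENCODE 29 where that list gave none. Gene bounds came from GENCODE 29, promoters from RefSeq. No dispersion can be estimated with 1 library per group, so no test was run. The steps were tested on simulated counts.

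The members and lists were chosen with earlier results of these data known. All 33 members were named. Of each neighbouring list, up to 4 genes per comparison farthest from 0 with at least 100 reads were named. Other genes were named after their values were seen. Alternatives were DESeq2 1.42.0 size factors, upper quartile factors, library totals, TMM without mitochondrial genes, other priors and filters, and FPKM.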

Additional observations from a re-analysis of the deposited data

How the results depend on the processing

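The 3 comparisons were repeated under 8 alternative settings of scaling, prior, filter and unit. Of the 96 alternative values for medians and counts of sterol genes, 93 stayed close enough to the main value to be classed as the same. Counts could still change a little within that class. The number of sterol genes at least 1.2-fold lower in USP39-KO than in SIRT7-KO ranged from 5 to 7. Restricted to genes reaching 100 counts in some library, the median ratio in SIRT7-KO against control was 0.013, against -0.07 as reported. That filter removes CYP51A1 and TM7SF2, both below 0 in SIRT7-KO. The number of sterol genes at least 2-fold higher in USP39-KO than in SIRT7-KO was 1, against 2 as reported, with library totals without TMM factors and also with at least 100 counts. ACAT2, at a ratio of 1.00, lies at that threshold, and CYP51A1 has under 100 reads. The median ratio ranged over the settings between 0.20 and 0.23 in USP39-KO against control and between 0.16 and 0.21 between the knockouts. Of the ratios of single sterol genes, only 5 of 93 moved beyond their interval, all with FPKM and a pseudocount of 1. They were ABCA1 at -0.46 in USP39-KO, 1.05 in SIRT7-KO and -1.52 between the knockouts, CYP51A1 at 0.55 and LPIN1 at 0.63 between the knockouts. A pseudocount of this size draws low values towards 0. Depth limits CYP51A1, TM7SF2 and ABCA1 in USP39-KO, each with under 100 reads there. No paired analysis was possible because each group has 1 library.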

Other observations

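Of 16 measured genes that move sterol through the cell, 6 (37.5%) were past the 1.2-fold rule as higher in SIRT7-KO and 1 (6.25%) as lower, against 17.6% and 18% of all genes. One of the 6, STARD5, rests on 14 reads in SIRT7-KO and 6 in control. In USP39-KO 3 were higher (18.8%) and 2 lower (12.5%), against 10.1% and 13.6% of all genes. NPC2, which hands cholesterol out of the lysosome, had 1050 reads in USP39-KO, 1575 in SIRT7-KO and 894 in control. Its log2 ratio was 0.47 in USP39-KO and 1.07 in SIRT7-KO, so the SIRT7-KO library held more than the others. NPC1, the membrane partner of NPC2 in the same step, had 3043, 2339 and 3151 reads, with ratios of 0.19 and -0.18, both short of 1.2-fold. LIPA, the lysosomal lipase that frees cholesterol from its esters, was at 0.17 in USP39-KO and 0.48 in SIRT7-KO. VLDLR, a lipoprotein receptor, had 605 reads in USP39-KO, 277 in SIRT7-KO and 620 in control. It was at 0.20 in USP39-KO, -0.91 in SIRT7-KO and 1.11 between the knockouts. GRAMD1B, a carrier of sterol from the plasma membrane, was higher in both knockouts, at 0.46 in USP39-KO and 0.52 in SIRT7-KO. Its relative GRAMD1A was lower in USP39-KO, at -0.42, and at -0.05 in SIRT7-KO.

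The liver X receptors themselves were not past 1.2-fold. NR1H3 (LXR alpha) had 580 reads in USP39-KO, 641 in SIRT7-KO and 717 in control, and NR1H2 (LXR beta) had 792, 886 and 919. Their ratios were -0.07 and 0.09 for NR1H3, and 0.02 and 0.20 for NR1H2. ABCA2, a transporter of the same family as ABCA1, was at -0.24 in USP39-KO and 0.28 in SIRT7-KO. LPCAT3, a phospholipid acyltransferase known as a liver X receptor target, had 135 reads in USP39-KO, 103 in SIRT7-KO and 164 in control, and was lower in SIRT7-KO, at -0.42. SMPDL3A, another known target, had 72 reads in USP39-KO, 25 in SIRT7-KO and 31 in control, a ratio of 1.44 in USP39-KO, where ABCA1 was lower. ABCG4, a sterol exporter related to ABCG1, had 1 read in USP39-KO, 17 in SIRT7-KO and was listed at 0 in control. STARD5, SMPDL3A and ABCG4 were named after their values were seen.

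Among the fatty acid genes that SREBP controls, FADS1, a desaturase of long fatty acids, had 8551 reads in USP39-KO, 5921 in SIRT7-KO and 9751 in control. It was lower in SIRT7-KO, at -0.47, as was FADS2 at -0.50. RDH11, placed in the same list as an SREBP target, was lower in SIRT7-KO too, at -0.39. FASN, the fatty acid synthase, had 20031, 20900 and 21109 reads and was short of 1.2-fold, at 0.16 in USP39-KO and 0.24 in SIRT7-KO. SCD, the stearoyl-CoA desaturase, was higher in SIRT7-KO, at 0.35. ELOVL6, an elongase, had 9 reads in USP39-KO, 2 in SIRT7-KO and 61 in control. It was lower than control in both knockout libraries and was named after its values were seen.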
